A study of Pleurotus ostreatus with 9 samples.

Results

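The deposited annotation assigns 7 genes of the oyster mushroom Pleurotus ostreatus to the KEGG orthology entry K14338, which describes a cytochrome P450 joined to its own NADPH-cytochrome P450 reductase. These 7 of the 10682 genes in the table were chosen by that entry alone, and all 7 passed the filter on low values, a mean of at least 1 FPKM over the 9 libraries. Each of them carries both enzyme numbers of the entry, the one for the unspecific monooxygenase and the one for the reductase, and each is listed under KEGG fatty acid degradation and tryptophan metabolism. All 7 are described as hypothetical proteins.

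The mycelium came from shaken liquid cultures of strain GEMB-PO1 in glucose, yeast extract and peptone medium at 28 °C, harvested after 3 days. In the first group the plasticizer butyl benzyl phthalate (BBP) was combined with 1 mM PB (piperonyl butoxide), which blocks P450 monooxygenases. The second group received BBP without PB, and the control received no chemical, with no vehicle named in the labels. For the amount of BBP the design text has 50 mg/L, whereas the protocols of the samples have 200 mg/L. Each group held 3 cultures, called biological replicates in the design, and all 9 libraries carry batch label 1. Cultures given only PB were not analysed here, so in the comparison of BBP with PB against control the effects of the 2 agents cannot be told apart. Total counts ran from 38098599 to 49161706 per library, and 9399 genes were tested.

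Cytochrome P450 enzymes use heme iron to insert an oxygen atom into fats, sterols and foreign compounds. The electrons come from NADPH, and in most eukaryotes a separate membrane protein that holds FAD and FMN passes them on. In a small group of enzymes the heme domain and the reductase form a single chain, as in P450 BM3 of the bacterium Bacillus megaterium and P450foxy of the mould Fusarium oxysporum, both of which hydroxylate fatty acids. A gene for such a fusion is longer than a gene for either domain alone.

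The gene ontology terms held none for the cofactors of the reductase in any of the 7 genes, and the lengths of the gene models went against a fusion for 6 of them. None of the 7 carried a gene ontology term for flavin, FMN or FAD binding, which 107 genes of the table had, and none carried a term for NADP or NADPH, which 84 genes had. Terms for the P450 side were common: 5 of the 7 had heme binding, 5 had the term for oxidoreductases acting on paired donors with molecular oxygen, 6 had iron ion binding and 3 had monooxygenase activity. Electron transfer, a term that by itself names neither side, was held by 4 of the 7. A missing term does not show that a domain is missing. The length of each model without introns was taken from the relation between its count and its FPKM value. It came to 888 bp for PLEOSDRAFT_1074478, 942 bp for PLEOSDRAFT_1050539, 1152 bp for PLEOSDRAFT_1052853, 1508 bp for PLEOSDRAFT_1034442, 1620 bp for PLEOSDRAFT_1034004 and 1804 bp for PLEOSDRAFT_1096935. PLEOSDRAFT_157733 stood apart at 3173 bp.

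For comparison, 84 other tested genes had both the heme binding and the paired-donor term, and their median model length was 1539 bp. PLEOSDRAFT_1074478 and PLEOSDRAFT_1050539 were each longer than 8 of these 84, PLEOSDRAFT_1034442 than 31, PLEOSDRAFT_1034004 than 61 and PLEOSDRAFT_1096935 than 75. PLEOSDRAFT_157733 was longer than 83 of them. The exception was PLEOSDRAFT_1085502 with 3231 bp, and PLEOSDRAFT_1065994 followed with 3039 bp. Neither of these has a flavin term or the K14338 entry, and both carry a peroxidase term, so a model of this length alone does not mark a reductase fusion. The table holds no other gene with the reductase's enzyme number or the entry K00327 of the separate reductase. PLEOSDRAFT_1079075, chosen after its values were seen, has the NADPH-hemoprotein reductase term, besides one for iron-sulfur cluster assembly, and its model is 1758 bp long. That length and the median of 1539 bp add up to 3297 bp, close to the model of PLEOSDRAFT_157733 and far from the others. Short models can also be incomplete, and the description of PLEOSDRAFT_1034442 says that its protein is partial. The set is therefore called the K14338 genes here, with PLEOSDRAFT_157733 as its 1 gene whose model is long enough for both domains. PLEOSDRAFT_157733 in turn has neither the heme binding nor the paired-donor term, and iron ion binding is its only term among those counted here.

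**Figure D1:**
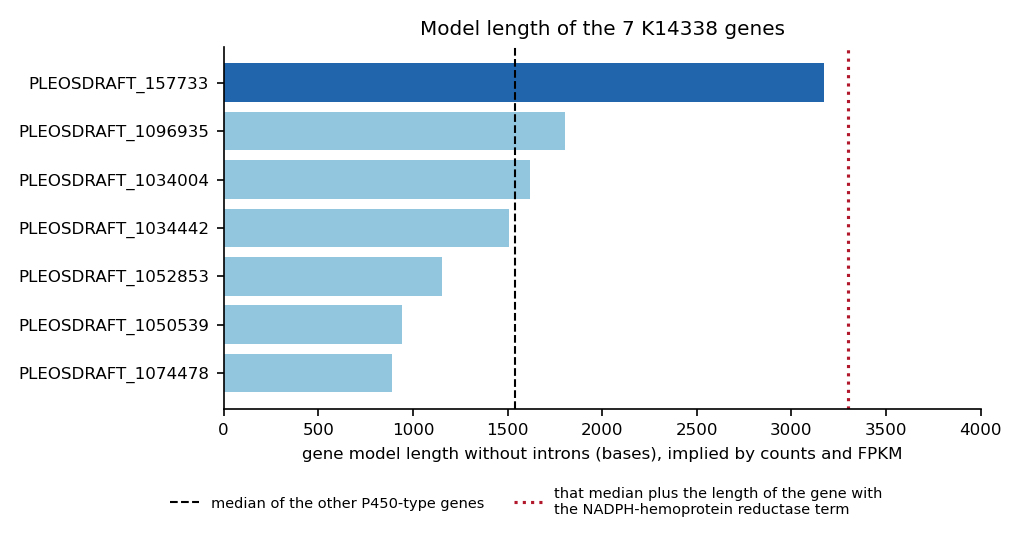
Model length without introns, in bases, of each K14338 gene, from the relation between counts and FPKM, with the median of 84 other genes that carry heme binding and paired-donor terms (dashed) and that median plus the length of PLEOSDRAFT_1079075 (dotted). PLEOSDRAFT_157733 reaches 3173 bp, and the other genes lie between 888 and 1804 bp.

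The genes lie on 4 scaffolds, and 6 of the 7 share a scaffold with another, in coordinates of the deposited table, whose genome build is not given in the sources used here. PLEOSDRAFT_1034004 (KL198004.1:4349341-4351687, minus strand) and PLEOSDRAFT_1052853 (KL198004.1:4357606-4359201, minus strand) are 5918 bp apart with 3 genes between them. PLEOSDRAFT_1034442 (KL198005.1:1309153-1311552, plus strand) and PLEOSDRAFT_1074478 (KL198005.1:1395692-1396908, minus strand) are 84139 bp apart. PLEOSDRAFT_1096935 (KL198008.1:1599619-1602343, plus strand) and PLEOSDRAFT_157733 (KL198008.1:3222808-3227160, plus strand) are 1620464 bp apart with 583 genes between them. PLEOSDRAFT_1050539 (KL198014.1:209171-210436, minus strand) has no other K14338 gene on its scaffold. No gene of the table overlaps any of them.

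FPKM is a level per length of model, so levels of different genes can be set side by side on it, and over all libraries the 7 genes ran from 0.547 to 73.2 FPKM. PLEOSDRAFT_1034442 was the highest of them in 8 of 9 libraries and PLEOSDRAFT_157733 the lowest in all 9. The places 5, 6 and 7 went to PLEOSDRAFT_1034004, PLEOSDRAFT_1050539 and PLEOSDRAFT_157733 in every library. The middle of the order depended on the group: PLEOSDRAFT_1052853 stood above PLEOSDRAFT_1074478 in all libraries with BBP with PB and with BBP, and below it in all control libraries. Neighbours in this order overlapped in range in several cases: PLEOSDRAFT_1034442 and PLEOSDRAFT_1096935 in BBP cultures, PLEOSDRAFT_1096935 and PLEOSDRAFT_1052853 in cultures with BBP and PB, PLEOSDRAFT_1096935 and PLEOSDRAFT_1074478 in controls, and PLEOSDRAFT_1034004 and PLEOSDRAFT_1050539 in BBP cultures.

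**Figure D2:**
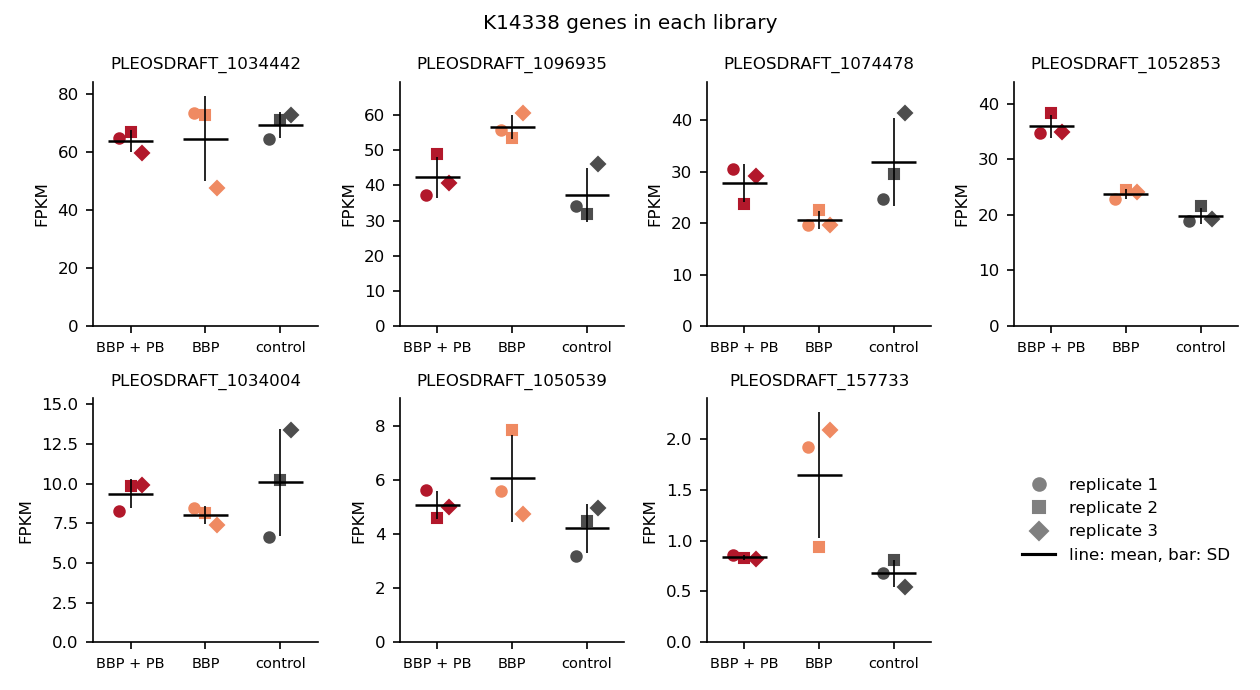
FPKM of the 7 K14338 genes in each library, with a separate axis from 0 for each gene; symbols mark replicate numbers, horizontal lines the group mean and vertical bars the SD (n = 3). PLEOSDRAFT_1052853 separates all 3 groups, PLEOSDRAFT_157733 and PLEOSDRAFT_1096935 are highest in BBP, and PLEOSDRAFT_1034442 overlaps between all groups.

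PLEOSDRAFT_157733, the longest model, was highest in BBP cultures. It had 0.862, 0.830 and 0.815 FPKM in cultures with BBP and PB, 1.92, 0.940 and 2.09 FPKM in BBP cultures, and 0.677, 0.807 and 0.547 FPKM in control cultures. Every BBP library was above every library of both other groups, but BBP replicate 2 was close to them. Behind these levels stood 111 to 131 reads per library with BBP and PB, 165 to 322 with BBP and 94 to 121 in controls. The gene rose 2.60-fold in BBP over control cultures (log2 change 1.38 ± 0.304 SE, adjusted p = 0.0137, edgeR's quasi-likelihood test with Benjamini-Hochberg adjustment over 9399 genes, 2-sided). It averaged 0.836 ± 0.0236 FPKM with BBP and PB and 1.65 ± 0.618 FPKM with BBP (SD, n = 3 each), a log2 change of -0.87 ± 0.301 that edgeR did not call (adjusted p = 0.0691). That value came to -1.15 without BBP replicate 2, with an adjusted p of 0.00681, and DESeq2 called it (adjusted p = 0.0308), as did library-size scaling (0.0437). Only that 1 of the 9 fits that leave out 1 library called it, and the adjusted p ran up to 0.208 in the others. The limma fits (0.107 and 0.124) and the replicate block (0.114) did not call it. BBP with PB differed from control by a log2 change of 0.51 ± 0.305 (adjusted p = 0.206). The gene's mean over the 9 libraries was 1.05 FPKM, just above the filter, and only the BBP group by itself reached 1 FPKM.

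PLEOSDRAFT_1096935, the longest of the other models and annotated with heme, iron, electron transfer and steroid terms, was also highest in BBP cultures. It had 37.4, 48.8 and 40.7 FPKM with BBP and PB, 55.8, 53.6 and 60.5 FPKM with BBP and 34.1, 31.8 and 46.0 FPKM in controls. All BBP libraries lay above all others, while the groups with BBP and PB and without any chemical overlapped. It rose 1.64-fold in BBP over control cultures (log2 change 0.71 ± 0.150, edgeR adjusted p = 0.0115). BBP with PB against BBP gave a log2 change of -0.32 ± 0.150 (adjusted p = 0.165), and BBP with PB against control 0.39 ± 0.150 (adjusted p = 0.0594). DESeq2 called the latter (0.0431), and so did 1 of the 9 fits that leave out 1 library, without control replicate 3 (0.0165). In the other such fits its adjusted p ran up to 0.232. The rises of PLEOSDRAFT_157733 and PLEOSDRAFT_1096935 in BBP over control were both called without any 1 of the 9 libraries. Those fits kept the filter over all 9 libraries, which PLEOSDRAFT_157733 passed only through its BBP level.

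PLEOSDRAFT_1052853, with a model of 1152 bp, was highest in BBP with PB. It had 34.6, 38.2 and 34.8 FPKM with BBP and PB, 22.8, 24.4 and 24.0 FPKM with BBP and 18.8, 21.5 and 19.2 FPKM in controls, and no group overlapped another. This gene rose 1.63-fold in BBP with PB over BBP (log2 change 0.70 ± 0.10, edgeR adjusted p = 0.00134) and 2.09-fold in BBP with PB over control (log2 change 1.06 ± 0.101, adjusted p = 4.8e-05). Both calls held without any 1 library. The rise in BBP over control was smaller, 1.29-fold (log2 change 0.36 ± 0.10, adjusted p = 0.0323). Its adjusted p came to between 0.0531 and 0.0753 when any library other than control replicate 1 was left out. That call was also lost with library-size scaling (0.130) and both limma fits (0.136 and 0.131).

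PLEOSDRAFT_1074478, the shortest model, whose only term of those counted is monooxygenase activity, was lowest in BBP cultures. It had 30.6, 23.7 and 29.3 FPKM with BBP and PB, 19.6, 22.6 and 19.7 FPKM with BBP and 24.7, 29.5 and 41.3 FPKM in controls. All BBP libraries lay below all others, and the other groups overlapped. It rose 1.45-fold in BBP with PB over BBP (log2 change 0.54 ± 0.167, edgeR adjusted p = 0.0468), a call that was lost without BBP with PB replicate 1 or 3, BBP replicate 1 or 3, or control replicate 2 (adjusted p up to 0.15). It was also lost with library-size scaling (0.142) and both limma fits (0.139 and 0.136). BBP against control gave a log2 change of -0.51 ± 0.166 (adjusted p = 0.0586). Library-size scaling (0.0448) and DESeq2 (0.0377) called this fall. Of the 9 fits that leave out 1 library only 1 did, without control replicate 1 (0.0438), and in the others the adjusted p ran up to 0.139. BBP with PB against control gave 0.03 ± 0.166 (adjusted p = 0.909, 95% interval -0.34 to 0.40).

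The remaining genes passed the test in no comparison. PLEOSDRAFT_1034442, the most abundant K14338 gene, had 64.6, 66.8 and 59.4 FPKM with BBP and PB, 73.2, 72.8 and 47.5 FPKM with BBP and 64.3, 70.8 and 72.6 FPKM in controls, and the groups overlapped. Its log2 change was 0.09 in BBP with PB over BBP, with a 95% interval of -0.26 to 0.43, and 0.003 in BBP over control, with an interval of -0.34 to 0.34. PLEOSDRAFT_1034004, the neighbour of PLEOSDRAFT_1052853, averaged 9.34 ± 0.912 FPKM with BBP and PB, 8.00 ± 0.555 FPKM with BBP and 10.1 ± 3.37 FPKM in controls, where its 3 libraries ran from 6.65 to 13.4 FPKM. Its log2 changes were 0.33, -0.21 and 0.12 in BBP with PB over BBP, BBP over control and BBP with PB over control, with adjusted p between 0.254 and 0.641. PLEOSDRAFT_1050539 averaged 5.08 ± 0.517 FPKM with BBP and PB, 6.07 ± 1.61 FPKM with BBP and 4.23 ± 0.906 FPKM in controls. Its log2 change in BBP over control was 0.64 ± 0.223, which edgeR did not call (adjusted p = 0.0726) and DESeq2 called (adjusted p = 0.0316).

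**Figure D3:**
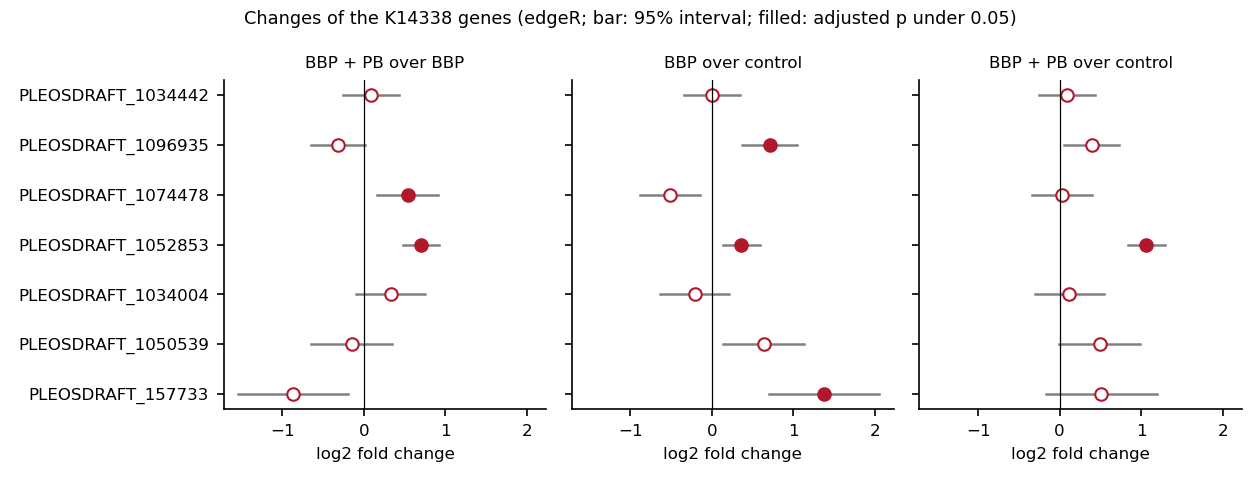
Log2 fold changes of the 7 K14338 genes from edgeR in the 3 comparisons; bars are 95% intervals and filled points have an adjusted p under 0.05. In BBP over control PLEOSDRAFT_157733 has the largest value (1.38) and the widest interval, and PLEOSDRAFT_1052853 is filled in all 3 panels.

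By comparison, 2 of the 7 genes were called higher and 0 lower in BBP with PB over BBP, where 20.4% of all genes tested were called in either direction, 9.98% higher and 10.5% lower. In BBP over control 3 were called higher and 0 lower, against 18.4% of all genes in either direction, 10.1% higher and 8.33% lower. PLEOSDRAFT_157733 is among these 3 and passed the filter through the BBP group, in which it was high, so it does not add to that count as the others do. In BBP with PB over control 1 was called higher and 0 lower, against 41.1% in either direction, 19.9% higher and 21.2% lower. At an unadjusted p under 0.05 there were 3, 5 and 2 genes in these comparisons. The share over all genes was not counted at that threshold, so these counts cannot be read as a result. DESeq2 called 2, 4 and 2 of the 7 higher and 1, 1 and 0 lower. Over all genes tested it called 1155 higher and 1272 lower in BBP with PB over BBP, and 1251 and 1064 in BBP over control. Its counts over all genes in BBP with PB over control are not given here, so its 2 higher there cannot be read as a result. The median log2 change of the 7 was 0.087, 0.364 and 0.393, against -0.012, -0.006 and -0.038 over all genes tested. The FPKM of the groups did not overlap for 2 genes above and 2 below in BBP with PB against BBP, where this held for 15.6% of all genes tested above and 29.7% below (45.3% in all). In BBP against control it held for 3 above and 1 below, with 12.3% and 22.1% over all genes (34.3% in all). In BBP with PB against control it held for 2 above and 0 below, with 17.1% and 40.0% over all genes (57.2% in all). PLEOSDRAFT_157733 is among the genes without overlap in each comparison and enters the medians, so the limit of its filter holds there too. With so few genes these shares cannot be read as particular to the set, and the 3 comparisons share their libraries. RNA was sequenced from whole mycelium, so fewer cells of a kind and less RNA per cell cannot be told apart.

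The summed level of the 7 genes differed less between groups than the share each of them held. It was 184.9 ± 6.92 FPKM with BBP and PB, 181.2 ± 13.3 FPKM with BBP and 173.2 ± 23.1 FPKM in controls (SD, n = 3 each), and the ranges of the groups overlapped. The 145 other P450-type genes of the table summed to 3980 ± 354 FPKM with BBP and PB, 4160 ± 397 FPKM with BBP and 2873 ± 148 FPKM in controls. The K14338 genes therefore made up 4.45 ± 0.288% of the summed P450-type level with BBP and PB, 4.20 ± 0.574% with BBP and 5.67 ± 0.454% in controls. The sum of the other genes rests in part on single genes: PLEOSDRAFT_1032080 alone averaged 800 ± 347 FPKM with BBP and 24.6 ± 6.12 FPKM in controls. These are descriptions of sums and carry no test.

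Within the sum, PLEOSDRAFT_1052853 held 19.4 ± 0.404% with BBP and PB, 13.2 ± 1.18% with BBP and 11.6 ± 1.64% in controls. PLEOSDRAFT_1096935 held 22.8 ± 2.4%, 31.5 ± 4.41% and 21.5 ± 2.34% in the same groups. PLEOSDRAFT_1034442 held 34.4 ± 1.25%, 35.3 ± 5.81% and 40.2 ± 3.10%. The gene with the longest model, PLEOSDRAFT_157733, never held more than 1.26% of the sum in any library.

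**Figure D4:**
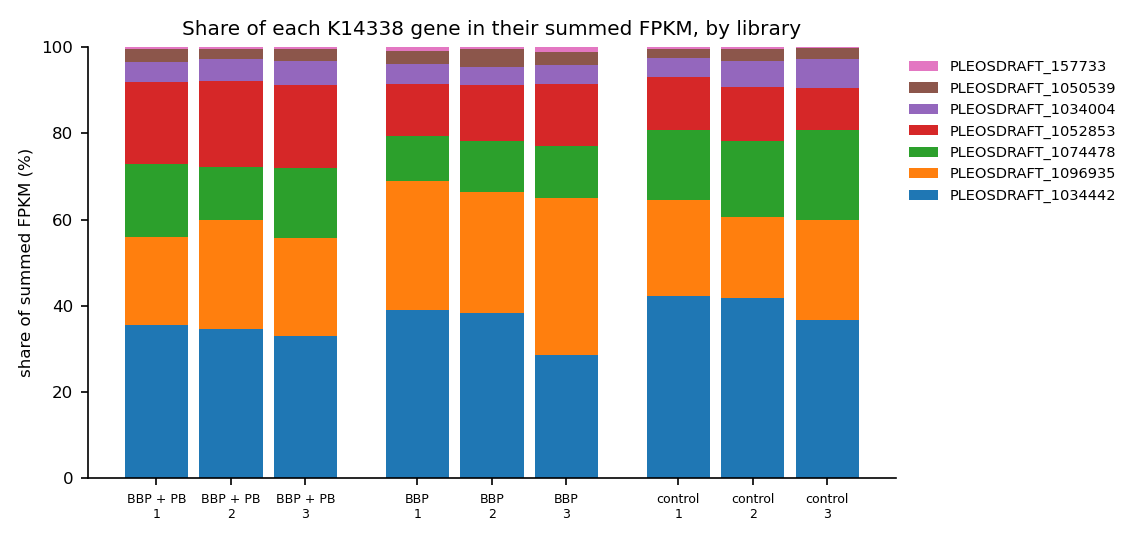
Share of each K14338 gene in their summed FPKM, in percent, for each of the 9 libraries. PLEOSDRAFT_1034442 and PLEOSDRAFT_1096935 fill over 50% of every bar, PLEOSDRAFT_1052853 is widest with BBP and PB, and PLEOSDRAFT_157733 is a thin band at the top.

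The 7 genes did not share 1 pattern across the libraries. Over the 9 libraries, which share their groups, Pearson's r of log2(FPKM + 1) ran from -0.78 between PLEOSDRAFT_157733 and PLEOSDRAFT_1074478 to 0.74 between PLEOSDRAFT_1074478 and PLEOSDRAFT_1034004. It was 0.69 between PLEOSDRAFT_157733 and PLEOSDRAFT_1096935. PLEOSDRAFT_157733 passed the filter only through its BBP level, so none of its values of r in this paragraph can be read as a result. Outside the set, the gene most like PLEOSDRAFT_157733 was PLEOSDRAFT_1060777 (r = 0.947), which has an ontology term for an oxidoreductase with 2-oxoglutarate as a donor, a class apart from the P450s. PLEOSDRAFT_1060777 averaged 3.68 ± 0.864 FPKM with BBP and PB, 27.5 ± 15.6 FPKM with BBP and 3.04 ± 0.480 FPKM in controls. Most like PLEOSDRAFT_1052853 were PLEOSDRAFT_162468, which has a monooxygenase term (r = 0.995), and PLEOSDRAFT_1089631 (r = 0.994), a hypothetical protein with no term. PLEOSDRAFT_1089631 averaged 717 ± 133 FPKM with BBP and PB, 137 ± 23.9 FPKM with BBP and 66.9 ± 26.5 FPKM in controls. Most like PLEOSDRAFT_1096935 were the hypothetical PLEOSDRAFT_1089793 (r = 0.956) and PLEOSDRAFT_1096303, a protein with a carbohydrate-binding module of family 21 (r = 0.952). For the other 4 genes the highest r ran from 0.942 to 0.977. These correlations describe 9 libraries in 3 groups and were picked as the highest among all genes tested.

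Around the closest pair of genes the levels differed from gene to gene. PLEOSDRAFT_18799, annotated as a glycoside hydrolase of family 61, a name formerly given to copper enzymes that cut polysaccharides, lies between PLEOSDRAFT_1034004 and PLEOSDRAFT_1052853. It averaged 19.2 ± 3.74 FPKM with BBP and PB, 31.3 ± 2.57 FPKM with BBP and 31.5 ± 1.73 FPKM in controls, and fell in BBP with PB over BBP (log2 change -0.60 ± 0.157, edgeR adjusted p = 0.0250) and over control (adjusted p = 0.0275), calls that each held in 5 of the 9 fits that leave out 1 library. The P450-type gene PLEOSDRAFT_1033184, within 20000 bp of both, averaged 11.5 ± 2.88 FPKM with BBP and PB, 7.19 ± 2.19 FPKM with BBP and 7.10 ± 1.4 FPKM in controls. It rose in BBP with PB over control (log2 change 0.91 ± 0.241, adjusted p = 0.0136, and 0.0603 without BBP with PB replicate 3).

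Separate electron carriers of P450s were represented by the 4 genes annotated as cytochrome b5 reductase, an enzyme that hands electrons to cytochrome b5. In BBP with PB over BBP 1 of the 4 rose and 0 fell (0 and 1 under library-size scaling), and in both other comparisons 1 rose and 1 fell. These are 25.0%, 50.0% and 50.0% of 4 genes, against 20.4%, 18.4% and 41.1% of all genes tested, and such a short list cannot be told apart from them. PLEOSDRAFT_1102329 averaged 62.1 ± 0.342 FPKM with BBP and PB, 50.9 ± 4.91 FPKM with BBP and 46.2 ± 3.62 FPKM in controls, and rose in BBP with PB over control (log2 change 0.63 ± 0.115, adjusted p = 0.00208). Its rise in BBP with PB over BBP (adjusted p = 0.0390), and the fall of PLEOSDRAFT_1070193 in BBP with PB over control (adjusted p = 0.0350), were each called in 3 of the 9 fits that leave out 1 library. In BBP over control PLEOSDRAFT_1064455 rose to 405 ± 51.8 FPKM, against 291 ± 18.8 FPKM in controls (log2 change 0.58 ± 0.119, adjusted p = 0.00994), and PLEOSDRAFT_1070193 fell to 79.0 ± 4.86 FPKM, against 123 ± 22.1 FPKM (log2 change -0.53 ± 0.116, adjusted p = 0.0135). PLEOSDRAFT_1079075, with the NADPH-hemoprotein reductase term, averaged 12.7 ± 0.440 FPKM with BBP and PB, 16.4 ± 0.711 FPKM with BBP and 16.1 ± 3.13 FPKM in controls and passed the test in no comparison. No gene described as cytochrome b5 was found by name.

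NADPH feeds the reductase, and the 7 genes annotated as NADPH-forming dehydrogenases gave 1 called higher in BBP with PB over BBP, 2 in BBP over control and 5 in BBP with PB over control, with 0 lower. That is 14.3%, 28.6% and 71.4% of the list, against 20.4%, 18.4% and 41.1% of all genes tested, and under library-size scaling the last count was 3 (42.9%). With so few genes these shares cannot be read as particular to the list. PLEOSDRAFT_1088946, annotated as glucose-6-phosphate dehydrogenase, averaged 116 ± 19.3 FPKM with BBP and PB, 115 ± 12.4 FPKM with BBP and 63.7 ± 5.67 FPKM in controls. It rose in BBP over control (log2 change 0.95 ± 0.140, adjusted p = 0.00219). PLEOSDRAFT_1035364, annotated as NADP malic enzyme, rose to 105 ± 5.03 FPKM in BBP with PB, against 57.2 ± 7.04 FPKM in BBP (log2 change 0.98 ± 0.115, adjusted p = 0.000446). The second malic enzyme, PLEOSDRAFT_1078355, rose to 105 ± 20.1 FPKM in BBP, against 55.7 ± 8.19 FPKM in controls (log2 change 1.02 ± 0.153, adjusted p = 0.00241).

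Both KEGG pathways of the 7 genes were counted as lists, which leave out the K14338 genes and overlap each other. Beside them, the genes tested as a whole were called higher and lower at 9.98% and 10.5% in BBP with PB over BBP, 10.1% and 8.33% in BBP over control, and 19.9% and 21.2% in BBP with PB over control. Of 42 tested genes of fatty acid degradation, 14 were called higher and 3 lower in BBP with PB over BBP, 17 and 0 in BBP over control, and 24 and 3 in BBP with PB over control, with median log2 changes of 0.212, 0.344 and 0.650. Under library-size scaling the first pair became 9 higher and 3 lower. PLEOSDRAFT_1052916, annotated as an alcohol dehydrogenase, averaged 200 ± 2.70 FPKM with BBP and PB, 13.6 ± 7.34 FPKM with BBP and 3.69 ± 0.428 FPKM in controls, and rose in all 3 comparisons (log2 change 3.98 ± 0.320 in BBP with PB over BBP, adjusted p = 7.51e-05). Of 49 tested genes of tryptophan metabolism, 15 were higher and 4 lower in BBP with PB over BBP, 18 and 1 in BBP over control, and 23 and 4 in BBP with PB over control. Under library-size scaling 10 of them were higher in BBP over control. The largest changes of this list in the first and second comparison were falls. PLEOSDRAFT_162326, annotated as an amidase, fell to 5.79 ± 2.23 FPKM in BBP with PB, against 78.7 ± 56.0 FPKM in BBP (log2 change -3.67 ± 0.579, adjusted p = 0.00230). PLEOSDRAFT_1057607, annotated as a nitrilase by its enzyme number, fell to 36.8 ± 12.7 FPKM in BBP, against 149 ± 70.5 FPKM in controls (log2 change -1.94 ± 0.446, adjusted p = 0.0160, and 0.0571 or 0.0517 without BBP replicate 1 or 2). PLEOSDRAFT_1048809 carries the same monooxygenase number as the K14338 genes, without the reductase number, under entry K00493. It averaged 390 ± 12.7 FPKM with BBP and PB and 36.1 ± 2.84 FPKM in controls (log2 change 3.64 ± 0.194, adjusted p = 1.56e-06), where the largest log2 change of a K14338 gene in this comparison was 1.06.

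The other P450-type genes numbered 145, of which 126 were tested. The list was built from ontology terms for monooxygenases or for heme binding with the paired-donor term, from enzyme numbers and from descriptions, so it also holds monooxygenases that are not P450s. Of the 126, 16 were called higher and 24 lower in BBP with PB over BBP, 20 and 5 in BBP over control, and 34 and 32 in BBP with PB over control, a split that became 24 and 45 under library-size scaling. These are 31.7%, 19.8% and 52.4% of the list, against 20.4%, 18.4% and 41.1% of all genes tested. The median log2 changes were -0.065, 0.174 and 0.121, the last of which was -0.102 under library-size scaling. PLEOSDRAFT_1032080, which has heme and monooxygenase terms, rose to 800 ± 347 FPKM in BBP, against 24.6 ± 6.12 FPKM in controls (log2 change 5.15 ± 0.377, adjusted p = 0.000107). PLEOSDRAFT_49924, also with the heme term, rose to 173 ± 23.6 FPKM in BBP with PB, against 9.85 ± 2.78 FPKM in controls (log2 change 4.36 ± 0.216, adjusted p = 1.13e-06). PLEOSDRAFT_33357 fell to 0.392 ± 0.126 FPKM in BBP with PB, against 3.99 ± 1.39 FPKM in BBP (log2 change -3.20 ± 0.385, adjusted p = 0.000545). No K14338 gene was called with a log2 change beyond 1.38 in size in any comparison.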

How the data were processed

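Poly(A) RNA of 9 mycelium cultures was sequenced with strand-marked (dUTP) libraries. The submitters' processing notes name HISAT2, StringTie and fastp, with versions, genome build and counting settings not given in the sources used here. The authors deposited raw read counts and FPKM values per gene in 1 table with annotation columns. The counts were tested here. The 9399 genes whose FPKM averaged at least 1 were kept, and a 3-group model over the 9 libraries was fitted with TMM scaling (edgeR 4.0.16, limma 3.58.1, R 4.3.3). The threshold for a call was a Benjamini-Hochberg adjusted p of 0.05, 2-sided. The common biological coefficient of variation was 0.201, and chi-square over degrees of freedom between libraries of a group ran from 39.3 to 317.8, above sampling noise, so no libraries were merged.

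FPKM is proportional to count over model length and library total, so each gene's length was read from them and scaled by 218 genes taken to have no intron, with a factor of 1.11 to 1.13 over the libraries. Over the libraries it varied by a CV of at most 0.255% for the K14338 genes.

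The named genes were every K14338 gene, the 2 genes most correlated with each, the annotated separate redox partners, and the 2 called genes of each list with the largest change in each comparison. The members, lists and rules were chosen with earlier results of these data known. Alternatives were RLE and library-size scaling, DESeq2 1.42.0, no filter, filterByExpr, limma-trend on log2(FPKM + 1) and log2(FPKM + 0.1), a replicate block, and each library left out. The reference table of 11849 genes matched 0 of the K14338 genes, so no sequences were used. No gene description named a vegetative mycelium hydrophobin, so the tissue label was not checked by those markers.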

Additional observations from a re-analysis of the deposited data

How the results depend on the processing

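The rises of PLEOSDRAFT_1052853 in BBP with PB over BBP and over control, and of PLEOSDRAFT_1096935 and PLEOSDRAFT_157733 in BBP over control, were called without any 1 of the 9 libraries. The last was not called by limma-trend (adjusted p 0.0516 and 0.0523 with pseudocounts of 1 and 0.1, log2 changes of 0.63 and 1.11). The fits without 1 library kept the filter over all 9 libraries, which PLEOSDRAFT_157733 passed only through its BBP level. Library-size scaling moved the median log2 change of all genes by -0.11, -0.108 and -0.219 in BBP with PB over BBP, BBP over control and BBP with PB over control.

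Of the K14338 genes, 1 was called higher in BBP with PB over BBP under library-size scaling, both limma fits and the replicate block. In BBP over control 1 was called higher under both limma fits, and 2 under library-size scaling and the replicate block. Library-size scaling called 684 of all genes higher there. In BBP with PB over control DESeq2 called 2 higher, and its count over all genes in that comparison is not given here. Library-size scaling and DESeq2 called 1 lower in each of the first pair of comparisons. Over all genes, library-size scaling called 621 higher in BBP with PB over BBP, and 1196 higher and 3183 lower in BBP with PB over control, where the limma fits called 3061 and 3063 lower and 1246 higher with a pseudocount of 0.1. The cause was not tested.

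Signs turned for changes near 0. PLEOSDRAFT_1034442 came to -0.027 in BBP with PB over BBP under library-size scaling. In BBP over control it came to -0.10 under library-size scaling, -0.0060 without a filter, -0.0048 with filterByExpr, -0.13 in both limma fits and -0.019 with the replicate block. In BBP with PB over control, library-size scaling and the limma fits gave -0.11, -0.056 and -0.056 for PLEOSDRAFT_1034004, -0.13, -0.12 and -0.12 for PLEOSDRAFT_1034442, and -0.20, -0.16 and -0.17 for PLEOSDRAFT_1074478.

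Leaving out each library in turn gave 1 to 2 K14338 genes higher and 0 to 1 lower in BBP with PB over BBP. In BBP over control it gave 2 to 3 higher, with 3 only without control replicate 1, and 0 to 1 lower. In BBP with PB over control it gave 1 to 2 higher. Over all genes it gave 515 to 1268 higher and 536 to 1193 lower in the first, and 584 to 942 higher and 383 to 912 lower in the second comparison. For BBP with PB over control the counts over all genes are not given here, so the 1 to 2 higher cannot be read as a result. Log2 changes ranged from -0.086 to 0.19 for PLEOSDRAFT_1034442 and -0.29 to 0.081 for PLEOSDRAFT_1050539 in BBP with PB over BBP, from -0.39 to 0.0040 for PLEOSDRAFT_1034004 and -0.099 to 0.18 for PLEOSDRAFT_1034442 in BBP over control, and from -0.061 to 0.34 for PLEOSDRAFT_1034004 and -0.072 to 0.22 for PLEOSDRAFT_1074478 in BBP with PB over control.

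Libraries with the same replicate number did not deviate together (r of deviations -0.152 to 0.206, 2 of 9 pairs over 0.1), so the numbers do not pair them, and 4 of 9 libraries correlated best with their own number. With the replicate block 783 genes were higher and 785 lower in BBP with PB over BBP, 804 and 592 in BBP over control, and 1772 and 1840 in BBP with PB over control. In that fit the adjusted p was 0.0717 for PLEOSDRAFT_1074478 in BBP with PB over BBP and 0.0563 for PLEOSDRAFT_1052853 in BBP over control. Depth limits PLEOSDRAFT_157733 most, with 94 to 322 reads per library.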

Other observations

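Heme, FMN and FAD are the cofactors of a P450 and its reductase. Of 27 tested genes of porphyrin metabolism, the route to heme, 3 were called higher and 2 lower in BBP with PB over BBP, 2 and 0 in BBP over control, and 6 and 4 in BBP with PB over control, a split that became 5 and 9 under library-size scaling. The shares called, 18.5%, 7.41% and 37.0%, were at or below those of all genes tested (20.4%, 18.4% and 41.1%). PLEOSDRAFT_154709, an oxidoreductase assigned to this pathway under an enzyme number known from chlorophyll synthesis in plants, averaged 153 ± 10.9 FPKM with BBP and PB, 45.5 ± 10.7 FPKM with BBP and 14.3 ± 3.14 FPKM in controls and rose in all 3 comparisons (log2 change 1.86 ± 0.190 in BBP with PB over BBP, edgeR adjusted p = 0.000220). PLEOSDRAFT_1076958, annotated as coproporphyrinogen oxidase, a late step of heme synthesis, rose to 2.60 ± 1.17 FPKM in BBP, against 0.518 ± 0.364 FPKM in controls (log2 change 2.41 ± 0.532, adjusted p = 0.0137). Its control level lies near the floor, and its adjusted p ran up to 0.048 in the 9 fits that leave out 1 library.

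Riboflavin is the precursor of FMN and FAD. Of its 26 tested pathway genes, 2 were higher and 6 lower in BBP with PB over BBP, 5 and 2 in BBP over control (3 and 2 under library-size scaling), and 6 and 6 in BBP with PB over control (4 and 8). These are 30.8%, 26.9% and 46.2% of the list, against 20.4%, 18.4% and 41.1% of all genes tested. PLEOSDRAFT_1089144, annotated as GTP cyclohydrolase II, the entry step of riboflavin synthesis, rose to 264 ± 12.8 FPKM in BBP, against 136 ± 24.5 FPKM in controls (log2 change 1.07 ± 0.117, adjusted p = 0.000557). PLEOSDRAFT_1112577, listed in the pathway by an acid phosphatase number although its ontology terms are those of a membrane transporter, averaged 166 ± 6.43 FPKM with BBP and PB, against 37.2 ± 4.69 FPKM in controls (log2 change 2.37 ± 0.126, adjusted p = 1.56e-06). The largest change of the list was a fall, of PLEOSDRAFT_1101899, which carries the same phosphatase number beside a transport term. It averaged 8.31 ± 1.88 FPKM with BBP and PB, 26.6 ± 2.28 FPKM with BBP and 54.6 ± 10.2 FPKM in controls (log2 change -2.52 ± 0.214 in BBP with PB over control, adjusted p = 2.39e-05, and -1.57 ± 0.208 over BBP, adjusted p = 0.000889). PLEOSDRAFT_1035741, annotated as an acid phosphatase, fell to 0.763 ± 0.330 FPKM in BBP with PB, against 2.56 ± 0.844 FPKM in BBP (log2 change -1.61 ± 0.362, adjusted p = 0.0126, and 0.0501 without BBP with PB replicate 2).

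Acyl-CoA ligases activate fatty acids for breakdown. Of 7 tested, 2 were higher and 2 lower in BBP with PB over BBP, 2 and 0 in BBP over control, and 3 and 3 in BBP with PB over control. These are 57.1%, 28.6% and 85.7% of 7 genes, against 20.4%, 18.4% and 41.1% of all genes tested. With so few genes these shares cannot be read as particular to the list. PLEOSDRAFT_37195, whose ontology terms name long-chain fatty acid ligase activity and the peroxisome, averaged 221 ± 6.76 FPKM with BBP and PB, 137 ± 19.8 FPKM with BBP and 52.1 ± 7.98 FPKM in controls, and rose in BBP over control (log2 change 1.51 ± 0.130, adjusted p = 0.000186). PLEOSDRAFT_1091202, whose terms name FAD binding in place of a ligase, fell to 15.7 ± 1.73 FPKM in BBP with PB, against 47.5 ± 5.00 FPKM in controls (log2 change -1.40 ± 0.220, adjusted p = 0.000897).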
